A study of Mus musculus with 8 samples.

Results

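The genes described here are 35 members of 2 connected routes of sugar breakdown, glycolysis with its entry and exit steps and the pentose phosphate pathway, taken as the rows of the count table whose gene symbol is on a list of such genes. They comprise 2 glucose transporters, 11 genes of upper glycolysis, 8 of lower glycolysis, 4 of lactate exchange and transport, 4 of pyruvate entry into mitochondria, the regulator Hif1a, 3 genes of the oxidative and 2 of the non-oxidative pentose phosphate branch. All 35 were found among the 29426 gene symbols of the deposited count table, and all 35 were among the 12313 genes tested. RNA was sequenced from CD8+ T cells of mouse spleen in 8 libraries, 2 in each of 4 groups, which are the wild-type genotype (WT) or the genotype labelled mCre, each in the sorted subsets labelled TN and MP. The protocol describes spleens of adult or neonatal mice, magnetic selection of CD8+ cells and flow sorting with antibodies to CD8, CD4, CD44 and CD122; the labels name no treatment. The series title names miR-29 beside Cre, but the allele of the mCre mice, the promoter that drives Cre, the age behind each library and whether the 2 libraries of a group came from different mice were not given in the sources used here. The p-values therefore measure the spread between these libraries, which may be technical.

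Glycolysis takes up glucose through transporters, traps it as glucose 6-phosphate, splits the sugar into 3-carbon units and yields pyruvate with a small gain of ATP. Pyruvate is reduced to lactate and exported, or enters mitochondria through the pyruvate dehydrogenase complex, which the pyruvate dehydrogenase kinases hold inactive. The pentose phosphate pathway branches off at glucose 6-phosphate and supplies NADPH and ribose. Resting naive T cells rely mostly on mitochondrial oxidation, activated T cells greatly increase glucose uptake and lactate production, and memory T cells are known to start glycolysis faster on restimulation than naive cells.

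Total counts ranged from 13479586 to 30057658 per library, and the libraries of a group differed from each other by more than counting noise. The sort labels were checked on Cd44 and Il2rb (the beta chain of CD122), which were respectively 9.63-fold and 6.93-fold higher in MP than in TN libraries of WT mice, and 10.6-fold and 6.59-fold higher in mCre mice. Of the 2 CD4 T cell genes followed, Cd4 was at most 0.37 CPM (reads of a gene scaled to a library total of 1000000 counted reads). Zbtb7b, a transcription factor of the CD4 lineage, had 1.29 to 2.5 CPM in TN and 14.8 to 20.9 CPM in MP libraries, and was called higher in MP cells of WT (log2 fold change 3.71, adjusted p = 1.37e-11) and mCre mice (2.82, adjusted p = 1.18e-10). Its part in the results below was not tested. The summed CPM of 3 defining CD8 T cell genes lay between 3352 and 3709, against 16.6 to 25.3 for 6 B cell genes and 18.7 to 30.6 for 10 myeloid genes. In bulk RNA of this kind, fewer cells that express a gene and less RNA per cell cannot be told apart.

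Together the 35 genes differed little in level between the groups. Their summed CPM was 3908 and 3899 in TN and 4022 and 4007 in MP libraries of WT mice, and 3773 and 3836 in TN and 4104 and 4100.0 in MP libraries of mCre mice. Both MP libraries lay above both TN libraries in each genotype, by a small margin. Levels of different genes were compared as CPM per kilobase of annotated exon. On that scale, averaged over the 8 libraries, Ldha (124), which makes lactate, Aldoa (98.1), the aldolase that splits fructose 1,6-bisphosphate, Pkm (79.7), the last enzyme of glycolysis, and Eno1 (65.6), an enolase, stood highest. With the length of the longest transcript in place of all exons Aldoa came before Ldha. Taldo1, a transaldolase of the pentose phosphate pathway, followed at 62.2. At the other end, Hk2, Hk3, Slc16a3, Aldoc and Eno2 had a mean below 5 CPM, while 28 of the 35 had at least 10 CPM.

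Gapdh, the dehydrogenase of lower glycolysis and a common reference gene, had only 12.3 to 19 CPM, and its 4.03 CPM per kilobase placed it 28th of the 35. Of all 50-base stretches of its longest coding transcript, 82.5% also occur in transcripts of other annotated genes, 213 of them pseudogenes. Genes whose span overlaps that of a member were left out of this search. The corresponding shares were 72.2% for Eno1, 68% for Pgk1, 41.5% for Pgam1, 30.5% for Pkm, 30.3% for Pdhb, 27% for Ldhb, 19.6% for Gpi1, 16.6% for Ldha, 13.5% for Aldoa, 10.9% for Taldo1, 7.65% for G6pdx and 7.51% for Tpi1. The other members shared under 1%, with 0% for Slc2a1, Slc2a3, Hk1, Pfkm, Pfkp, Slc16a1 and Pdk1. Sequence shared with an overlapping gene is not part of these values. How reads that match several places were counted was not given in the sources used here, so the levels of the genes with shared sequence are uncertain, and the part of shared sequence in them was not tested.

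The first comparison asked how the MP subset differs from the TN subset in each genotype. In WT mice 11 of the 35 genes were higher and 9 lower in MP cells, called at an adjusted p under 0.05 with edgeR's quasi-likelihood test over all 12313 genes. Of all genes tested, 31.7% were called in this comparison, 16.2% higher and 15.6% lower, against 57.1% of the 35. In mCre mice 13 were higher and 4 lower, or 48.6%, where 32.5% of all genes were called, 17% higher and 15.5% lower. The 2 comparisons share no library, but both come from the single fit in which all 8 libraries set the estimate of the spread. The 10 genes that rose in both genotypes, which are 10 of the 11 WT and 10 of the 13 mCre genes, were Slc2a1, Slc2a3, Gpi1, Pfkp, Aldoa, Tpi1, Pgk1, Eno1, Eno3 and Slc16a1. The 4 that fell in both, which are 4 of the 9 and all 4 mCre genes, were Hk1, Pfkm, Ldhb and Pdk1, and none was called in opposite directions. How many of all genes were called in the same direction in both genotypes was not counted. This agreement is therefore not shown to be particular to the 35. The called log2 fold changes in WT ran from 0.14 to 0.57 and from -1.03 to -0.13, and the median of all 35 was 0.0279, against -0.0019 over all genes tested. In mCre mice they ran from 0.19 to 1.35 and from -0.82 to -0.14, and the median of the 35 was 0.0344, against 0.0024. With DESeq2 in place of edgeR, 14 of the 35 were called in WT (9 higher, 5 lower) and 17 in mCre mice (13 higher, 4 lower). Of all 12313 genes DESeq2 called 3095 in WT (1615 higher, 1480 lower). Its count over all genes in mCre mice is not given here, so the 17 is not read as an excess. Under each of the 14 other settings or library omissions tried, 12 of the 20 WT calls and 13 of the 17 mCre calls held, 8 of them in both genotypes (Slc2a1, Slc2a3, Hk1, Gpi1, Pfkm, Pfkp, Aldoa and Tpi1). Where a lack of overlap between libraries is given below for a called gene, it describes the values and adds no evidence to the call.

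**Figure D1:**
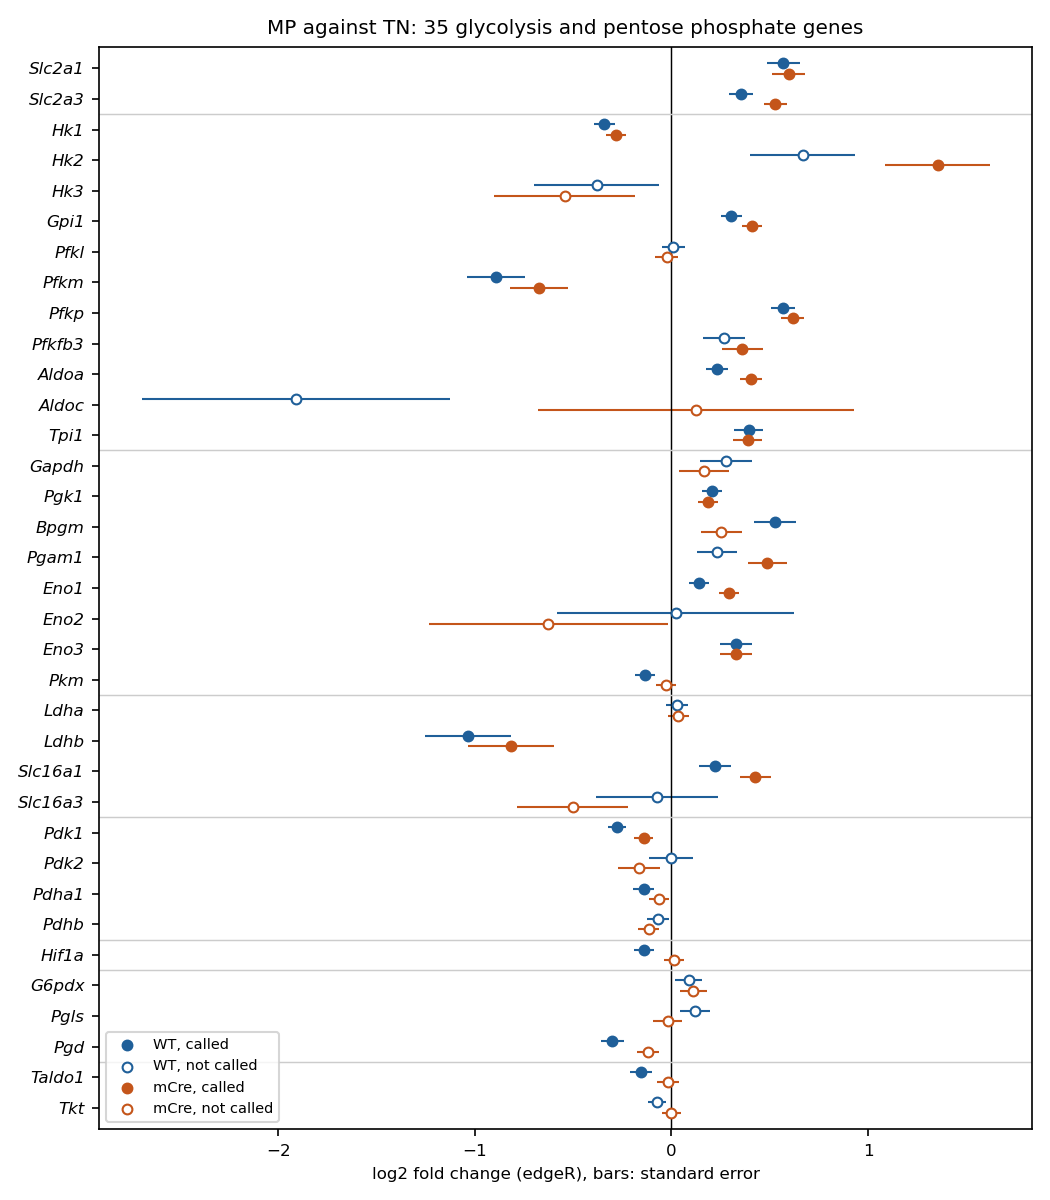
Log2 fold change of MP against TN for each of the 35 genes in WT and in mCre mice, with the standard error as a bar and filled points for calls at an adjusted p under 0.05, in pathway order. Glucose uptake and most called glycolytic genes lie right of 0, whereas Hk1, Pfkm, Ldhb and Pdk1 lie left of 0 in both genotypes.

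Both glucose transporters rose. Slc2a1 (GLUT1), the widely expressed transporter that is inserted in the membrane of activated T cells, is encoded at chr4:119108711-119137983 of GRCm38 (mm10), the build used for all coordinates here. It stood at 46.5 and 48.2 CPM in TN and 64 and 75.2 CPM in MP libraries of WT mice, and 47.9 and 41.4 CPM in TN and 69.8 and 63.2 CPM in MP libraries of mCre mice. Every MP library was above every TN library. The log2 fold change was 0.57 (SE 0.0854, adjusted p = 6.67e-05) in WT and 0.60 (SE 0.0833, adjusted p = 3.11e-05) in mCre mice. Slc2a3 (GLUT3, chr6:122727809-122801640), a transporter with high affinity for glucose, had 67.2 and 62.3 CPM in TN and 80.6 and 82.8 CPM in MP libraries of WT mice, and 48.9 and 46.8 CPM in TN and 67.6 and 67.6 CPM in MP libraries of mCre mice. The subsets did not overlap within a genotype, but the mCre-MP libraries were hardly above the WT-TN libraries. Slc2a3 rose by 0.35 (SE 0.0594, adjusted p = 1.15e-04) on the log2 scale in WT and by 0.53 (SE 0.0597, adjusted p = 9.92e-07) in mCre mice. The predicted gene Gm4482 overlaps Slc2a3 on the same strand, and how reads in a shared stretch were counted was not given in the sources used here. All overlaps named here are of whole gene spans, and shared exons were not looked for. Hk1, Gpi1, Aldoa, Tpi1 and G6pdx likewise overlap another gene on the opposite strand (Hk1os, Gm26762, Fam57b, Spsb2 and Ikbkg), and the strand setting of the counting was not given in the sources used here.

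Among the enzymes of upper glycolysis, different forms of the same enzyme changed in different directions, the hexokinases in mCre mice and the phosphofructokinases in both genotypes. Hexokinases trap glucose as glucose 6-phosphate. Hk1, the form bound to mitochondria in most tissues, had 197 and 186 CPM in TN and 153 and 146 CPM in MP libraries of WT mice, and 184 and 189 CPM in TN and 147 and 152 CPM in MP libraries of mCre mice. All 4 MP libraries were below all 4 TN libraries, and Hk1 fell by 0.34 in WT (SE 0.0523, adjusted p = 4.25e-05) and by 0.28 in mCre mice (SE 0.0518, adjusted p = 3.01e-04) on the log2 scale. Hk2, the inducible form, was scarce, at 1.76 and 1.61 CPM in mCre-TN and 3.98 and 4.48 CPM in mCre-MP, and rose there by 1.35 (SE 0.265, adjusted p = 5.37e-04). In WT it was 3.19 and 1.94 CPM in TN and 4.45 and 3.43 CPM in MP, which did not pass the test (log2 fold change 0.67, adjusted p = 0.0651). Gpi1, which turns glucose 6-phosphate into fructose 6-phosphate, rose from 323 and 302 to 392 and 370.4 CPM in WT, without overlap, a log2 fold change of 0.30 (SE 0.0517, adjusted p = 1.30e-04). In mCre mice it rose from 296 and 304 to 393 and 387 CPM, or by 0.41 (SE 0.0515, adjusted p = 3.74e-06).

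Phosphofructokinase, the main control point of glycolysis, assembles from subunits named for platelets (Pfkp), liver (Pfkl) and muscle (Pfkm). Pfkp (chr13:6579768-6648777) had 154 and 137 CPM in TN and 219.7 and 206 CPM in MP libraries of WT mice, and 153 and 162 CPM in TN and 244 and 229 CPM in MP libraries of mCre mice. Each MP library was above each TN library, and the log2 fold change was 0.57 (SE 0.0611, adjusted p = 5.11e-07) in WT and 0.62 (SE 0.0601, adjusted p = 1.45e-07) in mCre mice, the smallest p among the 35 in both. Pfkm went the other way. It had 12.6 and 12.5 CPM in TN and 7.53 and 5.85 CPM in MP libraries of WT mice, and 10.7 and 10.4 CPM in TN and 6.38 and 6.55 CPM in MP libraries of mCre mice, again without overlap between the subsets. Pfkm fell by 0.89 (SE 0.148, adjusted p = 1.07e-04) and 0.67 (SE 0.147, adjusted p = 0.0015) on the log2 scale in WT and mCre mice. Senp1 overlaps Pfkm on the opposite strand and Pitrm1 overlaps Pfkp, with the same uncertainty. Annotated genes on the same strand overlap Pfkm (Gm26513), Slc16a1 (Gm43581 and Gm43585), Hif1a (Gm49321), Pkm (Gm49759), Pfkfb3 (Gm37975), Slc2a1 (Mir1957a) and Tkt (Mir3076). Strand alone would not separate the genes there, but whether they share exons, and so whether counts were affected, is not shown. Pfkl passed in neither genotype, with 65.9 and 65.9 CPM in TN and 65.7 and 65.5 CPM in MP libraries of WT mice. Pfkfb3, which makes the fructose 2,6-bisphosphate that activates phosphofructokinase, rose in mCre mice (0.36, adjusted p = 0.0175), a call that was lost without mCre-TN replicate 1 or mCre-MP replicate 1 (adjusted p 0.121 to 0.138), and had a log2 fold change of 0.27 in WT (adjusted p = 0.074).

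As a share of the phosphofructokinase transcripts per kilobase of exon, Pfkp made up 45.6% and 42.8% in the TN and 57.5% and 57% in the MP libraries of WT mice, and 48.2% and 50% in the TN and 63.8% and 61% in the MP libraries of mCre mice. The mean share of Pfkm was 15.4% in TN and 7.21% in MP cells of WT mice, and 13.2% and 6.86% in the mCre groups, so the MP libraries held a smaller part of the muscle form. Per kilobase of the longest transcript the same direction was seen between subsets, but Pfkl (45.6%) rather than Pfkp (43.1%) was the main form in WT-TN. In the other families the same gene held the larger part in all groups. Hk1 was 93.8 to 97% of the hexokinase transcripts, Ldha 95.8 to 98.2% of the lactate dehydrogenases and Slc2a1 60.2 to 67% of the 2 glucose transporters.

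**Figure D2:**
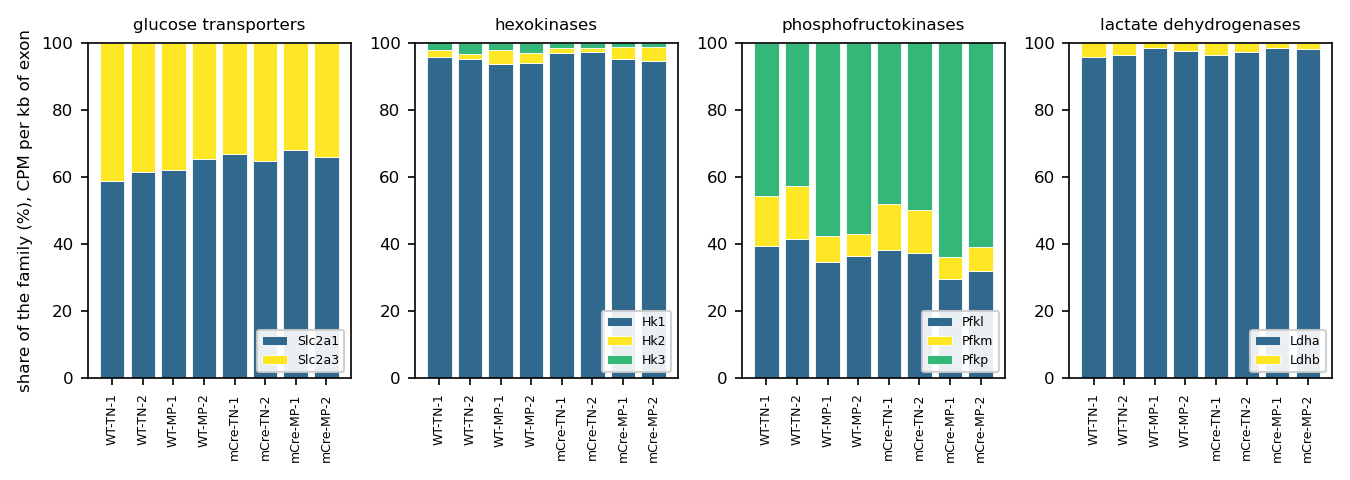
Share in percent of each isozyme in its family, from CPM per kilobase of exon, stacked for the glucose transporters, hexokinases, phosphofructokinases and lactate dehydrogenases, with 1 bar for each of the 8 libraries. The Pfkp part of the phosphofructokinase bar is larger and the Pfkm part smaller in the MP libraries than in the TN libraries of the same genotype.

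The enzymes that split the sugar also rose. Aldoa had 331 and 349 CPM in TN and 384 and 405 CPM in MP libraries of WT mice, and 298 and 330.3 CPM in TN and 408 and 406 CPM in MP libraries of mCre mice. No TN library reached any MP library, and the log2 fold change was 0.23 (SE 0.056, adjusted p = 0.00365) in WT and 0.41 (SE 0.0558, adjusted p = 1.17e-05) in mCre mice. Tpi1, which interconverts the 2 triose phosphates, had 39 and 38.5 and then 53.2 and 47.6 CPM in TN and MP of WT, and 36.8 and 36.2 and then 45.5 and 47.7 CPM in mCre mice. Its subsets did not overlap, with a log2 fold change of 0.39 in WT (SE 0.074, adjusted p = 3.70e-04) and 0.39 in mCre mice (SE 0.0723, adjusted p = 3.42e-04). Aldoc, another aldolase, stayed below 5 CPM on average and passed in neither genotype.

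In lower glycolysis, 3 of 8 genes rose in both genotypes. Pgk1, an enzyme that makes ATP, had 113 and 114 CPM in TN and 126 and 133 CPM in MP libraries of WT mice, and 112 and 113 CPM in TN and 123 and 127 CPM in MP libraries of mCre mice. The MP libraries were higher throughout, by a log2 fold change of 0.21 (SE 0.051, adjusted p = 0.00398) in WT and 0.19 (SE 0.0502, adjusted p = 0.00723) in mCre mice. The WT call was lost without WT-MP replicate 2 (adjusted p = 0.0542), and the mCre call without mCre-TN replicate 1 or mCre-MP replicate 2 (adjusted p 0.0563 to 0.0848). Enolases make phosphoenolpyruvate. Eno1 had 357 and 340.1 CPM in TN and 383 and 377 CPM in MP libraries of WT mice, and 323 and 297 CPM in TN and 381 and 364 CPM in MP libraries of mCre mice. Its subsets did not overlap, and it rose by 0.14 (SE 0.0521, adjusted p = 0.0472) in WT and 0.29 (SE 0.052, adjusted p = 1.95e-04) in mCre mice. In WT this call was lost with any of 4 libraries left out, namely WT-TN replicate 2, WT-MP replicates 1 and 2 and mCre-MP replicate 2 (adjusted p 0.0502 to 0.184), and with DESeq2 (adjusted p = 0.0551). Eno3, the enolase of muscle, had 26 and 26.4 CPM in TN and 34 and 31.1 CPM in MP libraries of WT mice, and 25.9 and 24.5 CPM in TN and 30.4 and 31.5 CPM in MP libraries of mCre mice. It was higher in every MP library, by 0.33 (SE 0.083, adjusted p = 0.00485) in WT, lost without WT-MP replicate 1 (adjusted p = 0.0705), and by 0.33 (SE 0.0806, adjusted p = 0.00372) in mCre mice.

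The other 5 genes of lower glycolysis were less uniform. Pgam1, a phosphoglycerate mutase, rose in mCre mice from 15.6 and 16.3 to 22.7 and 21.2 CPM (0.49, adjusted p = 7.36e-04), with 0.23 in WT (adjusted p = 0.0943). Bpgm, which makes the 2,3-bisphosphoglycerate known from red cells, rose in WT from 21.4 and 29.5 to 36.3 and 37.1 CPM (0.53, adjusted p = 0.00103), with 0.25 in mCre mice (adjusted p = 0.0747). The WT libraries of Bpgm were uneven, and its log2 fold change was 0.34 without WT-TN replicate 1 and 0.80 without WT-TN replicate 2, still called in both cases. Beside this, the summed CPM of 9 erythroid genes was 24.1 to 24.7 in TN and 14.4 to 23.5 in MP libraries of WT mice, and 29.5 to 64.4 and 25.6 to 47.6 in those of mCre mice, and the part of red-cell RNA in the Bpgm values was not tested. Pkm fell in WT from 398 and 391 to 349 and 363 CPM (-0.13, adjusted p = 0.0437), but the call was lost with any 1 of the 8 libraries left out (adjusted p 0.0677 to 0.275) and with DESeq2 (adjusted p = 0.0527). In mCre mice its log2 fold change was -0.03 (adjusted p = 0.717). Counts per gene do not separate the PKM1 and PKM2 forms that alternative splicing of Pkm makes. Gapdh, at 12.3 and 17.3 CPM in TN and 19 and 17 CPM in MP libraries of WT mice, and Eno2 passed in neither genotype.

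In lactate handling, the abundant dehydrogenase gene was not called, a scarce one fell and a transporter rose. Ldha was at 394 to 422 CPM across the 8 libraries, with overlapping subsets and a log2 fold change of 0.03 (SE 0.0539) in WT and 0.03 (SE 0.0537) in mCre mice, neither called. Ldhb, the form that favours use of lactate, had 8.75 and 8.02 CPM in TN and 3.21 and 4.89 CPM in MP libraries of WT mice, and 7.32 and 5.7 CPM in TN and 3.05 and 4.15 CPM in MP libraries of mCre mice. All MP libraries were below all TN libraries, and Ldhb fell by 1.03 in WT (SE 0.217, adjusted p = 0.00105) and 0.82 in mCre mice (SE 0.217, adjusted p = 0.00692) on the log2 scale. The mCre call was lost without mCre-TN replicate 1 or mCre-MP replicate 1 (adjusted p 0.0874 to 0.12). Slc16a1 (MCT1), a lactate transporter, had 47.6 and 55.3 CPM in TN and 61 and 58.2 CPM in MP libraries of WT mice, and 52.4 and 48.6 CPM in TN and 71.5 and 61.9 CPM in MP libraries of mCre mice. The gap between subsets was narrow in WT (0.22, SE 0.0812, adjusted p = 0.0457) and wider in mCre mice (0.43, SE 0.0784, adjusted p = 3.42e-04); the difference between these fold changes was not called (adjusted p = 0.889). The WT call was lost without WT-TN replicate 1, WT-MP replicate 1 or WT-MP replicate 2 (adjusted p 0.0774 to 0.316) and with DESeq2 (adjusted p = 0.0904), and its log2 fold change was 0.13 without WT-TN replicate 1 and 0.35 without WT-TN replicate 2. Slc16a3 (MCT4), the transporter of highly glycolytic cells, was at only 1.48 to 2.63 CPM and passed in neither genotype.

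At the entry of pyruvate into mitochondria, the inhibitory kinase gene Pdk1 fell. It had 306 and 308 CPM in TN and 250.1 and 251 CPM in MP libraries of WT mice, and 284 and 284 CPM in TN and 256 and 248 CPM in MP libraries of mCre mice. Both subsets were tight and did not overlap. The log2 fold change was -0.28 in WT (SE 0.047, adjusted p = 1.35e-04) and -0.14 in mCre mice (SE 0.0468, adjusted p = 0.0258), the latter lost with any 1 of the 4 mCre libraries left out (adjusted p 0.0672 to 0.169). Pdk2, a related kinase, at 13.5 to 16.1 CPM, and Pdhb, a subunit of pyruvate dehydrogenase, at 87.6 to 102 CPM, passed in neither genotype. Pdha1, the subunit that the kinases phosphorylate, was called lower in WT (-0.14, adjusted p = 0.0462), and had -0.06 in mCre mice.

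**Figure D3:**
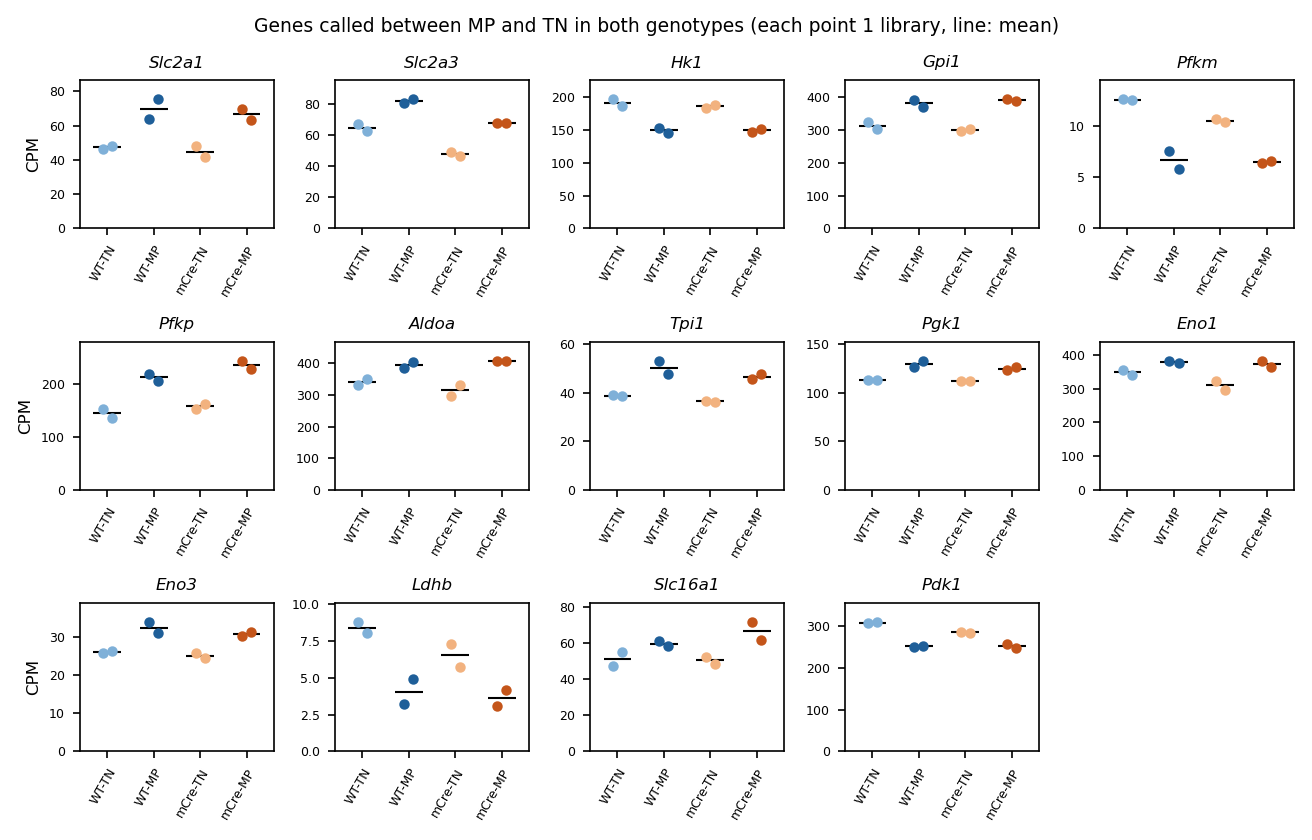
CPM in each of the 8 libraries for the 14 genes called in both genotypes, by group, with a line at the mean of the 2 libraries. The points of MP and TN libraries of the same genotype do not overlap in these 14 genes. The genes were chosen for their calls, so this is no separate evidence.

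The pentose phosphate genes did not rise in either genotype. Of the 3 oxidative genes, Pgd, which yields NADPH and ribulose 5-phosphate, fell in WT from 85.8 and 88.6 to 68.3 and 72 CPM (-0.30, SE 0.0565, adjusted p = 3.79e-04). In mCre mice it was 83.4 and 83.9 CPM in TN and 77.8 and 73.1 in MP (-0.12, adjusted p = 0.109). G6pdx, the first and rate-limiting enzyme of the branch, at 46.7 to 54.8 CPM, and Pgls, the lactonase, passed in neither. Of the 2 non-oxidative genes, Taldo1 was called lower in WT (-0.15, adjusted p = 0.0398) and Tkt, a transketolase, at 204 to 220.5 CPM, in neither. Hif1a, the oxygen-regulated subunit of a transcription factor that raises many glycolytic genes, was called lower in WT (-0.14, adjusted p = 0.0456) with 0.01 in mCre mice. The calls of Hif1a and Pdha1 in WT were lost with any 1 of the 8 libraries left out (adjusted p 0.0687 to 0.268 and 0.0614 to 0.289). That of Taldo1 was lost when any library other than WT-MP replicate 2 and mCre-MP replicate 2 was left out (adjusted p 0.0602 to 0.302), and all 3 were lost with DESeq2.

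Markers of division and of NK cells also differed between the subsets. The summed CPM of 10 proliferation genes was 261.6 to 274.6 in TN and 287.0 to 324.1 in MP libraries of WT mice, and 251.7 to 262.7 in TN and 298.0 to 307.5 in MP libraries of mCre mice. Of these 10 genes 2 were called higher in WT, where 16.2% of all genes were, and 7 in mCre mice, where 17% were, and 0 were called lower. Mki67 rose by 1.23 (SE 0.281, adjusted p = 0.0105) in WT and 1.69 (SE 0.26, adjusted p = 0.00122) in mCre mice. The 4 NK cell genes summed to 31.4 to 50.2 CPM in TN and 183.6 to 228.1 CPM in MP libraries, with Ncr1, Klrb1c and Klra8 at 0 in the TN libraries of both genotypes; most of this sum was Eomes, a gene of memory-type CD8 T cells too. The part of these differences in the changes of the 35 genes was not tested.

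Further genes of the same pathways, listed by symbol, were followed too. Of the 47 tested, 29.8% were called between the subsets in WT and 34% in mCre mice, near the 31.7% and 32.5% of all genes. Of 18 tested genes for other isozymes, transporters and side steps of glycolysis, 3 rose and 4 fell in WT, and 4 rose and 5 fell in mCre mice (median log2 fold change -0.11 and -0.17). Bsg (basigin), the chaperone of the lactate transporters, rose by 0.52 in WT and 0.52 in mCre mice (adjusted p = 1.84e-06 and 1.60e-06). Slc16a7 (MCT2), a transporter with high affinity for pyruvate and lactate, went from 1.48 and 1.45 CPM in WT-TN to 0.342 and 0.137 in WT-MP and from 1.53 and 1.4 in mCre-TN to 0.273 and 0.407 in mCre-MP. It fell in both genotypes (-2.55 and -2.03, adjusted p = 6.95e-04 and 0.00222). Ldhd, which oxidises D-lactate (-1.91 and -1.65, adjusted p = 5.44e-04 and 0.00207), and Gpd2, of the glycerol phosphate shuttle (-0.58 and -0.47, adjusted p = 0.0012 and 0.00483), fell as well. Of 9 tested genes of pyruvate entry and its control (median 0.0051 in WT and -0.01 in mCre mice), 1 was called in WT and 0 in mCre mice. The WT gene was Pdp1, the phosphatase that opposes the kinases, which was lower (-0.29, adjusted p = 0.0387). In mCre mice 1 of the 9 had an unadjusted p under 0.05. DESeq2 called 0 of the 9 in either genotype, so the Pdp1 call was lost with it. Of 7 further pentose phosphate genes (median -0.10 and 0.03), Rpia, which makes ribose 5-phosphate, was called higher in both genotypes (0.21 and 0.24, adjusted p = 0.0198 and 0.00824), and H6pd lower in mCre mice (-0.24, adjusted p = 0.0143). DESeq2 called 0 of these 7 in WT, and 1 higher and 0 lower in mCre mice. The WT call of Rpia and the call of H6pd were therefore lost with it. Among 13 regulators, 3 rose and 2 fell in each genotype (median -0.03 and -0.06). Txnip, which restrains glucose uptake, rose (0.33 and 0.26, adjusted p = 4.90e-04 and 0.00293), as did Myc, which raises glycolytic genes in activated T cells (0.24 and 0.27, adjusted p = 0.0016 and 3.49e-04). Arnt, the partner of HIF1A, fell (-0.28 and -0.35, adjusted p = 0.0094 and 0.00153).

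The promoters of the genes were searched on both strands for ACGTG, the core of the hypoxia response element bound by HIF1A with ARNT, and for CACGTG, the E-box bound by MYC, which contains ACGTG. The RefSeq promoter table (GRCm38.p6, 250 bases before to 50 after each start) held 34 of the 35 genes, without Slc2a3. ACGTG stood in at least 1 window of 19 of the 34 (55.9%), against 29.2% of the 9513 tested genes in the table and 21.8% of all 27025 genes. CACGTG stood in 6 of the 34 (17.6%), against 11.6% of tested and 8.09% of all genes. Of the 9 genes in the table that rose in both genotypes 4 held ACGTG, namely Aldoa, Pgk1, Slc16a1 and Slc2a1. A match describes the letters and is no evidence of binding. The 250 bases before the start are shown for the 3 of these 4 with a single annotated window, and for Ldha, which holds the most matches and was not called between the subsets. Capitals mark ACGTG or, for the other strand, CACGT, and a capital CACGTG is a match on both strands.
Slc2a1, chr4:119108495-119108744, strand +: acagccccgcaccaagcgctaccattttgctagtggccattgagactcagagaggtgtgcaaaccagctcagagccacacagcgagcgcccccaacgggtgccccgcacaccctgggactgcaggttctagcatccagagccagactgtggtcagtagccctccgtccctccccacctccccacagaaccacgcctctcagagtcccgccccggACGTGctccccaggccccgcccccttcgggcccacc
Pgk1, chrX:106186850-106187099, strand +: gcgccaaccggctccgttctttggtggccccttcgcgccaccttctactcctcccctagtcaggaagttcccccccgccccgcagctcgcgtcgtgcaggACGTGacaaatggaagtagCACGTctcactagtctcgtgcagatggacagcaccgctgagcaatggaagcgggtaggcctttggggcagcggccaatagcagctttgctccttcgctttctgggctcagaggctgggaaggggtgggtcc
Slc16a1, chr3:104638414-104638663, strand +: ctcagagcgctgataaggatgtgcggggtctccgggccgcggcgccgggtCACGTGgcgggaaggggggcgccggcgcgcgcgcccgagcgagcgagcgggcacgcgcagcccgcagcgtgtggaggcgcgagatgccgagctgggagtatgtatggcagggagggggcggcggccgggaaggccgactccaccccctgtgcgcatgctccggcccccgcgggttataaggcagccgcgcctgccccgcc
Ldha, chr7:46845554-46845803, strand +: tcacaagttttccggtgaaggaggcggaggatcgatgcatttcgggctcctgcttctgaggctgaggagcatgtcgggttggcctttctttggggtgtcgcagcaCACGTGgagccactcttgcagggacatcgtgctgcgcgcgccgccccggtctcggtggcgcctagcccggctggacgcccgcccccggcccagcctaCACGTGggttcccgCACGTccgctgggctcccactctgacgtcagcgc
The match in Slc2a1 starts 36 bases before the start of transcription, those in Pgk1 start 150 and 131 bases before it, and the E-box of Slc16a1 starts 200 bases before it. A further ACGTG match of Slc16a1 begins at base 21 after the start, beyond the stretch shown. Of the 2 annotated windows of Ldha, 1 holds matches, the one shown. Ldha holds 2 E-boxes, starting 145 and 48 bases before its start, and a further ACGTG match 34 bases before it. Pfkp, which had the smallest p between the subsets, holds no match in its window.

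The next comparison asked how mCre differs from WT within each subset. In TN cells 1 of the 35 genes was called, Slc2a3, lower in mCre (2.86%, where 3.47% of all genes were called, 1.55% higher and 1.92% lower). An unadjusted p under 0.05 was found for 8 of the 35 in TN and 8 in MP. The share of all genes at that limit was not counted, here or for the other counts of unadjusted p in this text. In MP cells 3 were called (8.57%, where 4.04% of all genes were, 2.08% higher and 1.97% lower), Slc2a3 lower and Pkm and Hif1a higher. Slc2a3 was at 64.7 ± 3.51 CPM (SD, n = 2) in WT-TN and 47.8 ± 1.51 (SD, n = 2) in mCre-TN, and at 81.7 ± 1.51 (SD, n = 2) in WT-MP and 67.6 ± 0.0373 (SD, n = 2) in mCre-MP, from the library values given above. Every mCre library was below every WT library of the same subset. The log2 fold change was -0.45 (SE 0.0613, adjusted p = 2.70e-04) in TN, a call kept under all 14 other settings and omissions, and -0.27 (SE 0.0578, adjusted p = 0.01) in MP. The MP call was lost without WT-MP replicate 2 (adjusted p = 0.0945) or mCre-MP replicate 2 (adjusted p = 0.0722). Slc2a1, the other transporter, did not pass in either subset (log2 fold change -0.09, adjusted p = 0.647 in TN, and -0.07, adjusted p = 0.749 in MP).

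**Figure D4:**
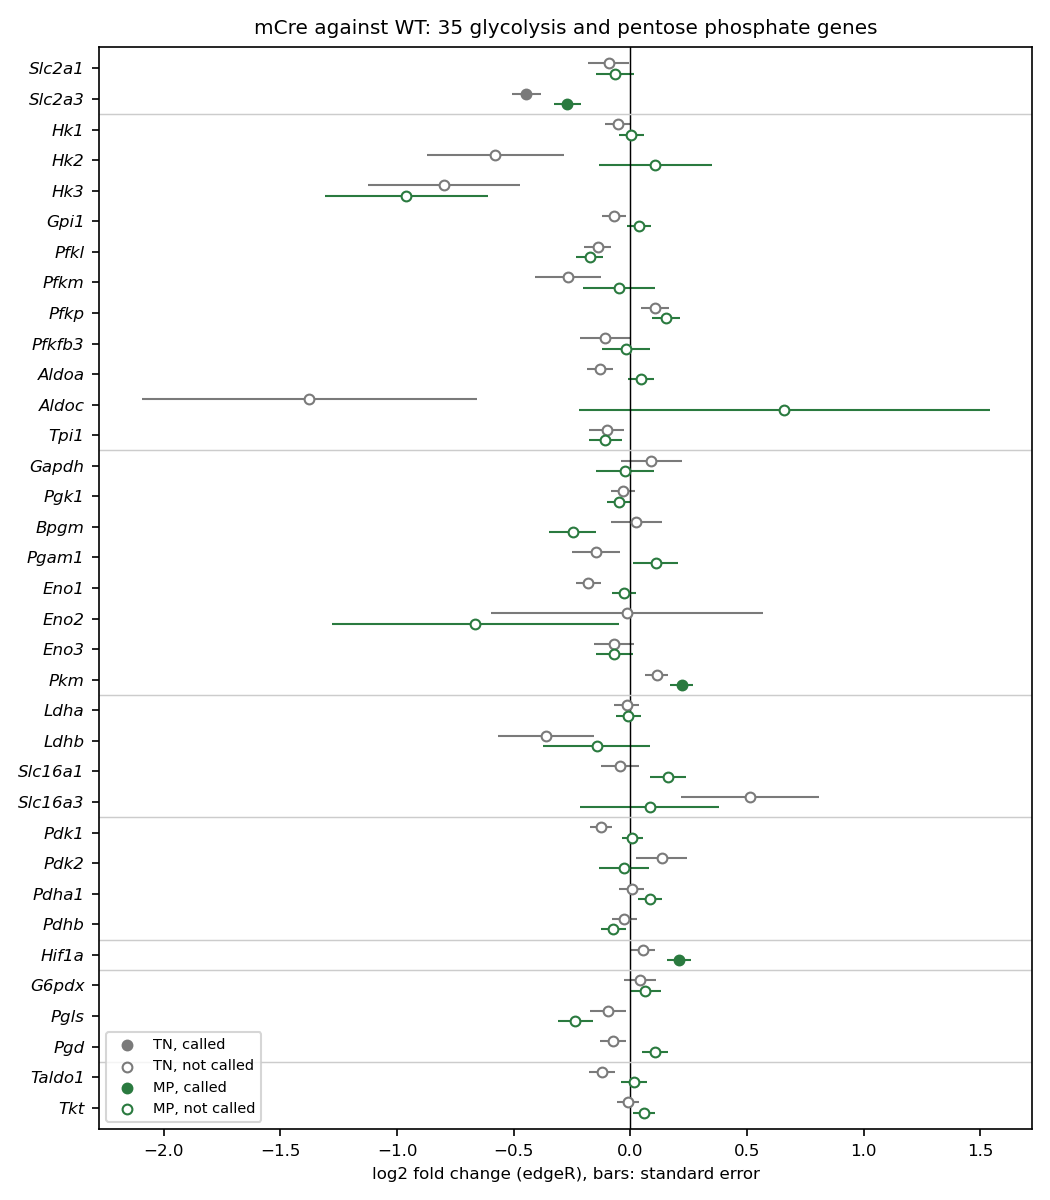
Log2 fold change of mCre against WT for each of the 35 genes in TN cells and in MP cells, with the standard error as a bar and filled points for calls at an adjusted p under 0.05. Slc2a3 lies left of 0 in both subsets, and Pkm and Hif1a are called right of 0 in MP cells.

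Pkm was at 349 and 363 CPM in WT-MP and 407 and 419.9 CPM in mCre-MP. The groups did not overlap, and the log2 fold change was 0.22 (SE 0.049, adjusted p = 0.0132); in TN it was 0.11 (adjusted p = 0.24), with 398 and 391 CPM in WT-TN and 422 and 439.8 CPM in mCre-TN. Hif1a was at 104 and 101 CPM in WT-MP and 117 and 120.4 CPM in mCre-MP, again without overlap, with a log2 fold change of 0.21 (SE 0.0511, adjusted p = 0.0257). In TN it was 0.06 (adjusted p = 0.643), from 117 and 112 CPM in WT and 118 and 122 CPM in mCre. Leaving out any 1 of the 4 MP libraries ended the MP call of Pkm (adjusted p 0.0599 to 0.162) and that of Hif1a (adjusted p 0.0923 to 0.238), and DESeq2 did not call Hif1a (adjusted p = 0.0755).

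With the subset as a covariate and 4 libraries on each side, 7 of the 35 genes were called between genotypes (20%, where 11% of all genes were called, 5.06% higher and 5.97% lower), 3 higher and 4 lower in mCre. This fit reuses the libraries of the comparisons within subsets. Slc2a3 (log2 fold change -0.35, SE 0.0459, adjusted p = 2.15e-05) and Pkm (log2 fold change 0.17, SE 0.0364, adjusted p = 0.00482) were called under all 13 other settings and omissions. Hk3, a hexokinase of myeloid cells, was scarce, at 1.85 and 2.96 CPM in WT-TN and 1.4 and 1.45 in mCre-TN, and 1.67 and 2.06 in WT-MP and 0.872 and 1.02 in mCre-MP. All mCre libraries were below all WT libraries (log2 fold change -0.87, SE 0.238, adjusted p = 0.0206). Beside it, the sum of 10 myeloid genes was 22.5 to 27.5 CPM in WT-TN and 18.7 to 19.7 CPM in mCre-TN, and 24.2 to 30.6 CPM in WT-MP and 22.9 to 23.1 CPM in mCre-MP. Of the 6 of these genes that were tested 2 were called across subsets. Csf1r, the receptor of macrophage growth factor, was lower in mCre across subsets (-1.32, adjusted p = 0.0021), as was Adgre1 (-1.16, adjusted p = 0.0301), while Csf3r was at 0 in all groups but WT-TN. The list was not uniform: of the 6 tested genes, 4 had a negative and 2 a positive log2 fold change. Mpo, S100a8 and S100a9 were at 0 in both WT-MP libraries and at 0.977, 0.936 and 1.1 CPM in mCre-MP replicate 2. The part of these markers in the Hk3 difference was not tested.

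The other 4 calls across subsets were those of Pfkl, Pgls, Pfkp and Hif1a. Pfkl had 65.9 and 65.9 CPM in WT-TN against 60.7 and 60 in mCre-TN, and 65.7 and 65.5 in WT-MP against 56.2 and 59.7 in mCre-MP. It was lower in every mCre library (log2 fold change -0.16, SE 0.0417, adjusted p = 0.0168). Pgls had 46.1 and 42.6 against 43.5 and 39.8 CPM in TN and 45.3 and 49.9 against 38.9 and 41.6 CPM in MP, where WT-TN replicate 2 was below mCre-TN replicate 1 (log2 fold change -0.17, SE 0.0547, adjusted p = 0.0497). Pgls shares its strand and part of its locus with Fam129c. Pfkp was higher across subsets (log2 fold change 0.13, SE 0.042, adjusted p = 0.049), although WT-TN replicate 1 and mCre-TN replicate 1 were nearly equal. Hif1a was higher too (log2 fold change 0.13, SE 0.0397, adjusted p = 0.0342). Of the 7 calls across subsets all except those of Slc2a3 and Pkm were lost with 1 or more libraries left out. For Hk3 these were WT-TN replicate 2, WT-MP replicate 2 and mCre-MP replicate 1 (adjusted p 0.0589 to 0.108), and for Pfkl WT-MP replicate 1 and mCre-MP replicate 1 (adjusted p 0.0516 to 0.0661). For Pfkp they were WT-TN replicate 2, both WT-MP libraries, mCre-TN replicate 2 and both mCre-MP libraries (adjusted p 0.0588 to 0.188), for Hif1a the same 6 (adjusted p 0.0652 to 0.145), and for Pgls the same MP libraries with WT-TN replicate 1 and mCre-TN replicate 2 (adjusted p 0.0751 to 0.201). DESeq2 called 4 of the 7, without Pfkp, Hif1a and Pgls. Pgls was not called with scaling by total counts alone either (adjusted p = 0.0654), and Pfkp not with the RLE size factors (adjusted p = 0.0567).

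**Figure D5:**
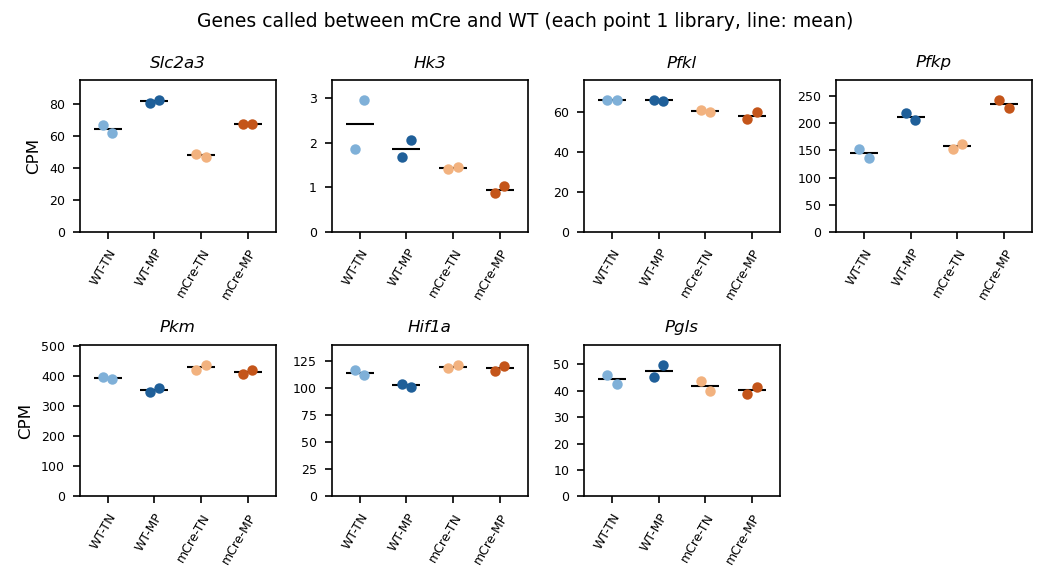
CPM in each of the 8 libraries for the 7 genes called between genotypes in a subset or across subsets, by group, with a line at the mean of the 2 libraries. The mCre points of Slc2a3, Hk3 and Pfkl lie below the WT points of the same subset, and those of Pkm and Hif1a lie above them. The genes were chosen for their calls, so this is no separate evidence.

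The last comparison asked whether the difference between subsets depended on the genotype. Of the 35 genes 0 were called for this interaction with edgeR and 0 with DESeq2, where edgeR called 0.13% of all genes. An unadjusted p under 0.05 was found for 3 of them, Aldoa, Hif1a and Pgd, each with an adjusted p of 0.806 or more. For Slc2a3 the MP against TN log2 fold change was 0.17 larger in mCre than in WT (SE 0.0843, adjusted p = 0.844). The 9 genes called between the subsets in 1 genotype and not in the other, 6 in WT and 3 in mCre mice, are therefore not shown to differ between the genotypes. Among the further pathway genes 0 were called between genotypes within TN or within MP cells, by edgeR or by DESeq2, while 9 in TN and 9 in MP had an unadjusted p under 0.05. Shares of all genes at that limit were not counted, for these genes or for the 35. Across subsets 5 of the 47 tested were called, or 10.6%, near the 11% of all genes. Bsg (-0.17, adjusted p = 0.0129), Gpd1l of the glycerol phosphate shuttle (-0.14, adjusted p = 0.0251), Epas1 (HIF2A, -0.63, adjusted p = 0.0207) and Egln2, an oxygen sensor of the HIF factors (-0.18, adjusted p = 0.0106), were lower in mCre, and Irf4, which supports glycolysis in activated T cells (0.87, adjusted p = 0.0174), was higher. Irf4 was scarce and uneven, at 1.855 and 3.44 CPM in WT-TN and 3.56 and 6.475 in mCre-TN. In MP it had 2.22 and 1.78 CPM in WT and 3.16 and 4.27 in mCre. Epas1 was scarce too, with group means of 4.22 and 3.39 CPM in WT-TN and WT-MP and 2.59 and 2.33 in mCre-TN and mCre-MP. Calls of these further genes were not recomputed with libraries left out.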

How the data were processed

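The authors deposited raw counts (whole reads by gene symbol) for 8 libraries of sorted spleen CD8+ T cells. Reads were handled with Trim Galore, HISAT2 and featureCounts on mm10, per the submitters' processing notes. Versions, annotation, strand setting and treatment of multiply matching reads were not given in the sources used here. Libraries were made with a directional kit, per the labels' protocols. All 8 libraries entered a single edgeR 4.0.16 fit in R 4.3.3 (TMM scaling, filterByExpr with a minimum count of 10, a mean per group, robust quasi-likelihood F test), with p-values adjusted by Benjamini-Hochberg over 12313 genes and calls at an adjusted p under 0.05. Fold changes are edgeR estimates with a prior count, and SE is the log2 fold change divided by the square root of F. The code was tested on simulated counts. CPM used total counts (13479586 to 30057658), and lengths came from GENCODE exons of GRCm38. Replicates differed by more than sampling noise and were kept apart. Alternatives were DESeq2 1.42.0, other scalings, no filter, a replicate block, the 2 groups alone and each library left out.

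Values of every library are given for genes called in both genotypes or between genotypes, and at most 4 further pathway genes per list and comparison are named by smallest p. The members and lists were chosen with earlier results of these data known.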

Additional observations from a re-analysis of the deposited data

How the results depend on the processing

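The 48 calls of single genes were recomputed 665 times; none changed direction, 556 kept the call and 109 lost it. Without an expression filter 783 genes (against 427) were called between genotypes in TN, 888 (against 498) in MP and 81 (against 16) for the interaction, and 2 of the 35 in TN. DESeq2 called 26 genes for the interaction and 4 of the 35 (against 7) across subsets, where its count over all genes is not given here. With 1 library left out, calls over all genes ran from 2879 to 3836 (MP against TN in WT), 2797 to 4187 (the same in mCre), 204 to 446 (genotype in TN), 195 to 593 (genotype in MP), 9 to 32 (interaction) and 855 to 1198 (across subsets). Of the 35, they ran from 14 to 17, 13 to 18, 1 to 1, 0 to 3, 0 to 0 and 2 to 7. The 0 in MP came without WT-MP replicate 2 or mCre-MP replicate 2, and the 2 across subsets without mCre-MP replicate 1. Per longest transcript, the Pfkp share was 55.14% in WT-MP (against 57.27%) and 47.77% in mCre-TN (against 49.08%).

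Replicate numbers are shared by the groups. Differences between replicates 1 and 2 correlated across genes by 0.109 between WT-TN and WT-MP and by 0.0769 between mCre-TN and mCre-MP. Between groups of different genotypes the correlations were -0.0446 to -0.0139. The positive values were small, so the numbers are not shown to pair the libraries. A pairing of TN and MP libraries within a genotype was not tested. A replicate block gave 21, 17, 2, 3, 0 and 6 calls of the 35 in the 6 comparisons, against 20, 17, 1, 3, 0 and 7 without it. Over all genes it gave 4036 calls of MP against TN in WT, against 3908, and such counts for the other comparisons are not given here. The block also ended the call of Pgls across subsets (adjusted p = 0.0528). It was a single term shared by both genotypes, so it does not model a pairing within a genotype.

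A library left alone in its group was assumed to vary like the other groups. With 2 libraries a group, small changes and genes under 5 CPM were measured least precisely, and other scalings moved the median of all genes by at most 0.0324.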
